A study of Mus musculus with 6 samples.

Results

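Gene expression in the growth plate of mice labelled ATF6aKO was compared with that of mice labelled WT. The growth plate is the cartilage layer through which a long bone lengthens. The comparison used 4 of the 6 arrays of the series, 2 for each genotype, and covered all genes that could be named from the RefSeq accession of a probe. All mice were untreated males of strain C57BL/6J, the tissue came from the tibia at 4 weeks of age, and it was taken by laser microdissection. The ATF6aKO mice are labelled as knockouts of ATF6a, the protein of gene Atf6. The labels give neither the deleted part of the gene nor whether the deletion acts in every tissue, and they leave unsaid whether mice were pooled and whether a genotype's 2 arrays stand for separate mice. The p-values therefore cover array-to-array spread alone, and that spread may be technical. The other 2 arrays of the series came from mice labelled ATF6bKO, knockouts of the related gene Atf6b, and their values are given beside those of ATF6aKO.

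ATF6a is a transcription factor that is made as a protein of the endoplasmic reticulum (ER) membrane. When unfolded proteins build up in the ER it moves to the Golgi, where proteases cut off its cytosolic part. That part enters the nucleus and raises genes for ER chaperones, disulfide isomerases and the machinery that degrades misfolded proteins. Chondrocytes of the growth plate load the ER heavily, because they secrete large amounts of collagen and proteoglycan, and hypertrophic chondrocytes enlarge before bone replaces the cartilage.

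The design sets a limit on every value below. The ATF6aKO arrays were read in the red channel of a slide that also held the ATF6bKO arrays, and the WT arrays were read in the only channel of another slide, so slide, channel and genotype cannot be told apart. Weight is given here to genes with several probes, because probes of a gene can be checked against each other. That check does not separate slide from genotype. Between 90.3% and 96.7% of the spots of the 4 arrays lay well above background. Over all probes the ATF6aKO arrays correlated with WT arrays at r = 0.851 to 0.901, with each other at r = 0.970 and with ATF6bKO arrays at r = 0.971 to 0.982. The WT arrays correlated with each other at r = 0.960.

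WT replicate 1 stood apart from WT replicate 2 in genes of bone and blood. Col1a1, the main collagen of bone, measured 13.65 and 6.74 on WT replicates 1 and 2 (normalised log2 intensity of the brightest probe, the scale of all levels below), against 7.18 and 6.81 in ATF6aKO. Col1a2, the partner chain, measured 16.02 and 8.62 in WT and 11.08 and 11.46 in ATF6aKO. The summed intensity of the osteoblast and osteocyte markers, in units of 1000, was 84.0 and 3.37 in WT and 4.25 and 4.74 in ATF6aKO. Red cell markers summed to 34.9 and 7.47 in WT and to 3.35 and 3.11 in ATF6aKO, in the same units. Counts that moved most with this array are also given without it. How far bone or blood in this array moved other genes was not tested.

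Atf6 itself did not pass the test. Its only probe measured 7.07 and 6.97 in ATF6aKO and 7.05 and 7.28 in WT, levels that overlapped, and 6.91 and 7.01 in ATF6bKO. The log2 difference was -0.15 ± 0.16 (SE; limma adjusted p = 0.498), and it was 0.07 under 75th percentile scaling. The position of the probe relative to the deletion is not known here, so it checks nothing about the label. Atf6b measured 8.92 and 8.48 in ATF6aKO and 9.06 and 9.19 in WT (adjusted p = 0.138).

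A gene was called when its brightest probe passed a Benjamini-Hochberg adjusted p of 0.05 in limma. By this rule 8157 of 19122 genes tested were called, or 42.7%, and this share is the background for every count of members below. Of these, 3886 were higher in ATF6aKO (20.3% of all tested) and 4271 lower (22.3%), with a median log2 difference of -0.03 over all genes. Without WT replicate 1 the count was 8061. Under 75th percentile scaling the median of all genes moved to 0.13 and the split to 5131 higher and 3614 lower, so the balance of rises and falls depends on the scaling. In 73.2% of the genes tested the ATF6aKO and WT arrays did not overlap.

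Probes of the same gene often disagreed. Of 4859 genes with 2 or more probes, 296 had every probe called higher in ATF6aKO (6.09%) and 332 every probe called lower (6.83%), together 628 (12.9%). Scaled to the 75th percentile, 491 agreed in rising and 249 in falling, so the balance of agreeing genes depends on the scaling too. Another 362 genes (7.45%) had probes called in opposite directions, 2377 had some probes called in 1 direction and the others not called, and 1492 had no probe called. Of 2395 such genes whose brightest probe was called, 628 had all other probes called the same way (26.2%) and 337 had another probe called the opposite way. Each probe differed by over 2-fold in 106 of the genes that rose in all probes and in 73 of those that fell in all. Among genes with 3 or more probes, 24 rose in all, 22 fell in all and 132 had probes called in opposite directions.

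The 628 agreeing genes depended on single arrays. Without WT replicate 1 there were 622 agreeing genes, and 487 of the 628 were among them in the same direction. Without ATF6aKO replicate 2 there were 252, with 237 of the 628 among them, although that fit assumes the lone ATF6aKO array to vary like the other groups. Across the probe-level settings other than the authors' deposited table and the added demand for over 2-fold, 186 genes agreed in the same direction, 104 higher and 82 lower. Of the 30 agreeing genes with the largest differences, 24 belong to these 186.

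Across genes, the log2 differences of the brightest and the next brightest probe correlated at r = 0.284 for ATF6aKO minus WT, and 58.8% of these pairs had the same sign. Genes are not independent replicates, and the pairs share arrays, so this is a description. The correlation was 0.184 in the dimmest tertile of genes and 0.334 in the brightest. Between the ATF6aKO replicates, which share genotype and slide, the same pairs correlated at r = 0.473, and between the WT replicates at r = 0.255. The scatter of probe pairs shows how many genes lie in the quadrants where probes oppose each other.

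**Figure D1:**
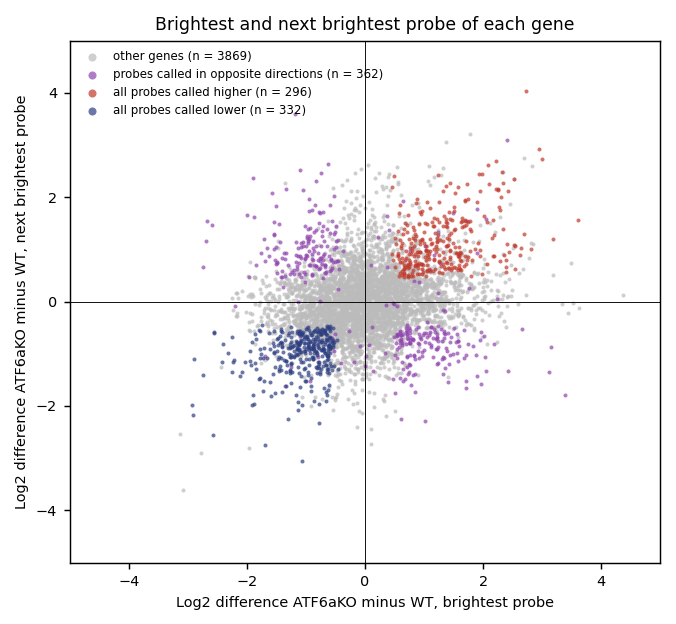
Log2 difference between ATF6aKO and WT of the brightest probe (horizontal axis) and the next brightest probe (vertical axis) of the 4859 genes with 2 or more probes; each point is a gene, coloured by whether all of its probes were called higher (296), all lower (332), or some in opposite directions (362). Points of opposed genes lie mainly in the upper left and lower right, and the cloud is only weakly tilted (r = 0.284); a gene with 3 or more probes can be opposed through a probe that is not drawn.

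Among the 15 agreeing rises with the largest smallest-probe difference, Col9a1 came first. It encodes a chain of collagen IX, which sits on the collagen fibrils of cartilage. Its brightest probe measured 13.99 and 13.37 in ATF6aKO, 10.44 and 11.01 in WT, and 13.35 and 12.68 in ATF6bKO. Its log2 differences were 2.95 ± 0.31 and 2.93 ± 0.45 (SE; adjusted p = 0.000828 and 0.00252), or 7.73-fold by the brightest probe. Uqcrh, a subunit of respiratory complex III, measured 10.75 and 11.26 in ATF6aKO and 8.71 and 7.31 in WT. Its probes gave log2 differences of 3.0 ± 0.46 and 2.74 ± 0.32. In both genes every ATF6aKO array lay above every WT array, which the rule for choosing them required.

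Other agreeing rises included genes of ribosomal and nuclear proteins. Rpl38, of the large ribosomal subunit, measured 12.01 and 12.29 against 9.86 and 8.98 in WT, with log2 differences of 2.73 ± 0.38 and 4.04 ± 1.08; on its second probe the WT arrays themselves lay at 10.18 and 6.17. Rpl11 rose on each of 3 probes (log2 differences 2.22, 2.70 and 2.77). Rpl10a rose on each of 2 probes (2.08 and 2.61). Erh, a small nuclear protein of RNA processing, measured 10.67 and 11.33 against 8.76 and 8.21, 5.71-fold higher. Nono, an RNA and DNA binding protein of nuclear paraspeckles, measured 10.05 and 10.23 against 8.19 and 7.90, 4.27-fold higher. Anp32b, a histone chaperone, measured 12.71 and 12.72 against 10.74 and 10.81, 3.84-fold higher, and Tasor, a member of the HUSH silencing complex, 8.91 and 9.43 against 7.06 and 6.74.

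The remaining rises of this group were of mixed kind. Rab10 and Gosr2 act in membrane traffic: Rab10 was 4.86-fold and Gosr2 3.33-fold higher by the brightest probe. Slc16a3, a lactate exporter, measured 9.90 and 10.24 in ATF6aKO and 8.11 and 8.16 in WT, and its ATF6bKO arrays lay at 10.15 and 8.43. Cxcr6, a chemokine receptor, and Amy2a5, a pancreatic amylase, have known roles outside cartilage; they were 4.63-fold and 3.93-fold higher. In Niban2 and Rpl10a the mean of the ATF6bKO arrays lay nearer to WT than to ATF6aKO on the brightest probe. Niban2 measured 8.04 and 8.78 in ATF6aKO, 6.55 and 6.5 in WT and 7.13 and 6.84 in the ATF6bKO arrays. Rpl10a measured 11.90 and 12.14 in ATF6aKO, 10.45 and 9.42 in WT and 11.08 and 10.59 in the ATF6bKO arrays.

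The 15 agreeing falls with the largest smallest-probe difference began with Serpinf1, the secreted factor PEDF, which osteoblasts make. It measured 7.74 and 8.12 in ATF6aKO and 12.05 and 8.98 in WT, with log2 differences of -2.58 ± 0.81 and -2.55 ± 0.67 (SE; adjusted p = 0.0367 and 0.0189). WT replicate 1, which held the bone markers, was the high array here, and without it the log2 difference was -1.04. The call of Serpinf1 was lost when either ATF6aKO array was left out. Cmtm7, a membrane protein, measured 10.24 and 10.19 in ATF6aKO, 13.04 and 13.22 in WT and 10.29 and 10.56 in ATF6bKO. Its log2 differences were -2.92 ± 0.17 and -2.18 ± 0.28, and WT was 7.56-fold higher by the brightest probe. The WT arrays of Cmtm7 lay close together, unlike those of Serpinf1.

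H2-Q2, a class I histocompatibility gene with near-identical copies, measured 8.74 and 8.61 against 12.61 and 10.60 in WT, with a log2 difference of -1.92 without WT replicate 1; its signal may be shared with those copies. Stxbp2, which works in vesicle fusion of blood cells, measured 13.26 and 13.23 against 15.36 and 15.38, and Shc2, an adaptor of receptor kinases, 11.54 and 11.48 against 13.30 and 13.27. On these brightest probes of Stxbp2 and Shc2 the arrays of a genotype nearly coincided, and ATF6aKO and WT lay far apart. The ATF6bKO arrays lay with ATF6aKO, at 13.32 and 13.36 for Stxbp2 and 11.42 and 11.43 for Shc2. On the dimmer probe of Shc2 the WT arrays lay at 8.49 and 7.46. Foxl2, a transcription factor of the ovary and eyelid, measured 13.31 and 12.76 against 14.81 and 15.01. Such levels of a gene known from other tissues are those of its probes on these arrays. Cyba, a subunit of the phagocyte oxidase, was 3.23-fold higher in WT.

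Several of the other falls are known from tissues other than cartilage. Serpina1e, a protease inhibitor of the liver, was 3.79-fold higher in WT by the brightest probe, and Myh8, a muscle myosin, 3.32-fold. Crybb1, a lens crystallin, was 3.26-fold higher in WT and Olfr373, an olfactory receptor, 3.02-fold. The others were Ano10 (3.45-fold), Nup210 (3.07-fold) and Zfp316 (2.88-fold). In the 14 falls shown the ATF6bKO arrays lay on the side of ATF6aKO, as the plot of agreeing genes shows.

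**Figure D2:**
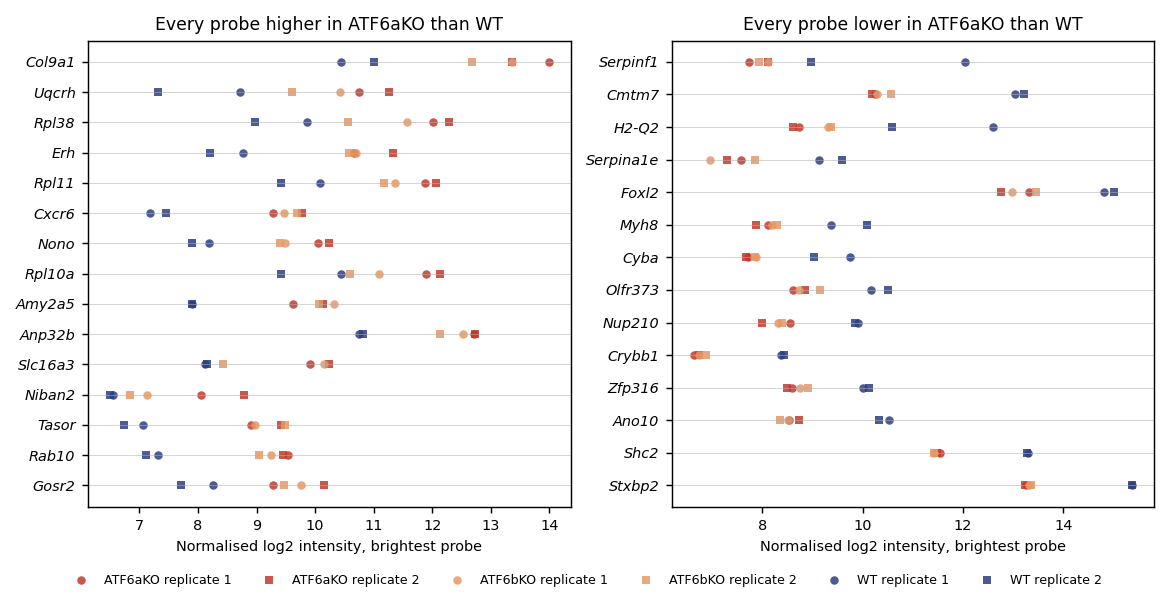
Normalised log2 intensity of the brightest probe on each of the 6 arrays for the 15 genes with every probe higher in ATF6aKO than WT (left) and 14 with every probe lower (right); circles are replicate 1 and squares replicate 2. Col9a1 spans 10.44 to 13.99, and Serpinf1 and H2-Q2 have widely spaced WT arrays. The WT arrays stand apart from the ATF6aKO arrays in each gene, which the rule for choosing the genes required.

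Cartilage genes were higher in ATF6aKO. Of 12 chondrocyte markers 11 rose and none fell, with a median log2 difference of 2.92, and of 25 cartilage matrix genes 17 rose and 4 fell (median 2.07), against 20.3% higher over all genes. The 2 lists share 11 genes. Of the called matrix genes 20 have a single probe. Among 3 matrix genes with several probes 1 agreed, Col9a1. Without WT replicate 1 the counts were 11 of 12 and, for matrix genes, 15 higher and 3 lower. In the authors' deposited table the direction turned, with 2 chondrocyte markers higher and 5 lower. For the knockout arrays the deposited table follows the green channel, which the labels' dye does not name. In that channel 58.2% and 54.5% of values on the ATF6aKO arrays were 1 or less, against 0% on each WT array. What turned the direction was not tested.

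Col9a1 was the only chondrocyte marker with 2 probes, so the other members rest on 1 probe each. Col2a1, the collagen of cartilage fibrils, measured 15.06 and 15.36 in ATF6aKO, 10.88 and 11.15 in WT and 14.51 and 13.25 in the ATF6bKO arrays. It was 18.3-fold higher than in WT (log2 difference 4.19 ± 0.37, SE; adjusted p = 0.000622). Acan, the core protein of aggrecan, measured 13.61 and 13.40 against 10.41 and 10.81, 7.42-fold higher, and Col9a2, the partner of Col9a1, 14.07 and 14.30 against 10.14 and 10.86. The order of the means was alike in all 3 genes, with ATF6aKO highest, ATF6bKO between and WT lowest. Comp, a matrix protein that binds collagens, was the marker that did not pass, at 13.59 and 14.02 against 12.87 and 13.27 (adjusted p = 0.136). In Comp that order did not hold, because the ATF6bKO arrays lay below both WT arrays, at 12.51 and 11.38. Epyc, a small proteoglycan of growth cartilage, differed between the ATF6aKO arrays, at 8.37 and 10.03, against 6.65 and 6.73 in WT (log2 difference 2.51 ± 0.49).

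Of 11 small leucine-rich proteoglycans 4 rose and 1 fell, and Ogn, osteoglycin, measured 7.73 and 8.52 against 6.42 and 6.37. Of 18 chondrocyte transcription factors 5 rose and 1 fell. Trps1, a zinc finger repressor that shapes the growth plate, rose on each of 3 probes, with log2 differences of 1.38 ± 0.25, 1.53 ± 0.23 and 2.43 ± 0.20. Its brightest probe measured 9.13 and 9.37 in ATF6aKO, 7.94 and 7.81 in WT and 9.32 and 8.59 in the ATF6bKO arrays. Among 16 genes of hypertrophic chondrocytes 6 rose and 4 fell (median -0.37). The agreeing member there was S100a1, a calcium binding protein, at 10.46 and 10.46 against 9.92 and 9.90 (log2 differences 0.55 and 0.89). The call of S100a1 was lost when any of the ATF6aKO or WT arrays was left out.

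Genes that build the sugar chains of proteoglycans moved both ways. Of 26 tested 9 rose and 5 fell. Papss2, which makes the sulfate donor, measured 10.45 and 11.17 in ATF6aKO and 7.27 and 7.17 in WT, 12.0-fold higher on its only probe. Slc35d1, which carries nucleotide sugars into the ER, measured 11.22 and 10.99 against 8.38 and 6.01, and 1 of its WT arrays was not well above background. Chpf2, a chondroitin polymerising factor, was the agreeing member and fell, from 8.92 and 9.18 in WT to 8.37 and 8.03 (log2 differences -0.85 and -0.75).

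Among 33 genes of collagen modification and secretion 7 rose and 6 fell, and its 3 agreeing members all fell. Without WT replicate 1 the counts were 12 higher and 3 lower, so the balance of this list rests on that array. Adamts2, which trims procollagen, measured 7.96 and 7.81 in ATF6aKO and 9.13 and 8.76 in WT, with log2 differences of -1.06 and -3.05. On its second probe WT lay at 11.47 and 8.93, with the array that held bone markers higher. Loxl1, a crosslinking oxidase, measured 7.97 and 7.70 against 9.04 and 9.12, and P4ha3, a prolyl hydroxylase subunit, 8.96 and 8.89 against 9.50 and 9.53. Leaving out any of the ATF6aKO or WT arrays removed the call of P4ha3. None of the rises of this list held on every one of several probes of a gene. Serpinh1, the collagen chaperone, measured 11.95 and 11.94 in ATF6aKO and 9.65 and 8.31 in WT.

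Genes listed as targets of ATF6 were next examined. Whether ATF6a acts on each of them directly was not tested. The site to which ATF6 is known to bind, with its partner NF-Y, is the ER stress element, CCAAT and CCACG separated by 9 bases. RefSeq promoters (GRCm38.p6, 250 bases before to 50 bases after the start) were searched for it on both strands. It was found in 39 of 32851 promoters (0.119%) and in 9 of the 22 targets with a promoter in the table. The elements of 6 of these 9 are shown because their genes illustrate how targets with the same site differed, with the CCAAT and CCACG parts in capitals and each read on the strand of its CCAAT.
Hspa5: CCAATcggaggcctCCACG
Canx: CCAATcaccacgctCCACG
Pdia6: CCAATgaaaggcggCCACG
Creld2: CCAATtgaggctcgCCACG
Syvn1: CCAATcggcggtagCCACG
Dnajc3: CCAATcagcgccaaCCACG
The promoter of Hspa5 is printed whole, with its element in capitals, because Hspa5 had the second largest rise among the targets. It lies at chr2:34771840-34772139 on the plus strand, and the element begins 65 bases before the start.
Hspa5: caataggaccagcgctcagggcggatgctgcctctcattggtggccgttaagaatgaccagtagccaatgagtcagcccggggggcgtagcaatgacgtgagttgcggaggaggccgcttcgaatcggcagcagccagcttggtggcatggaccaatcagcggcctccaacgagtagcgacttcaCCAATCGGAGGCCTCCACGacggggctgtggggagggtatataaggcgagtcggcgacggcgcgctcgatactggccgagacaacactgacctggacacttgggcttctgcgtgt

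ATF6 targets were called in both directions. Of 27 tested 8 rose and 4 fell, with a median log2 difference of 0.31, against 20.3% higher and 22.3% lower over all genes. Without WT replicate 1 there were 11 higher and 3 lower, without WT replicate 2 there were 6 and 5, and without ATF6aKO replicate 2 there were 3 and 3. The calls of Hspa5, Canx, Xbp1, Pdia4, Tmed2 and Derl1 were lost without ATF6aKO replicate 2, and those of Hspa5, Hyou1, Edem1 and Derl1 without ATF6aKO replicate 1. Without WT replicate 1 that of Derl1 was lost. Without WT replicate 2 the calls of Pdia4, Tmed2 and Edem1 were lost. By the authors' deposited table, which follows the green channel for the knockouts, none was lower and 20 were higher. Only 6 of the targets had 2 probes, and 1 of these agreed.

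The targets that rose included chaperones and folding enzymes of the ER, a transcription factor and a cargo receptor. Pdia3, a disulfide isomerase of the glycoprotein cycle, measured 10.51 and 10.90 in ATF6aKO, 8.64 and 7.25 in WT and 9.96 and 8.91 in the ATF6bKO arrays, 6.75-fold above WT (log2 difference 2.76 ± 0.49, SE; adjusted p = 0.00414). Hspa5, the chaperone BiP, measured 11.09 and 11.83 against 9.82 and 7.81 in WT, 6.24-fold higher (adjusted p = 0.0171). Its WT arrays lay far apart, with WT replicate 1 nearer to ATF6aKO, and its ATF6bKO arrays lay at 10.49 and 9.09. Xbp1, the transcription factor that the ER sensor IRE1 activates by splicing, measured 8.71 and 9.32 against 7.40 and 6.60. Canx, the lectin chaperone calnexin, measured 8.98 and 9.56 in ATF6aKO, 8.27 and 7.64 in WT and 8.30 and 7.56 in the ATF6bKO arrays.

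Smaller rises were seen in 3 more targets with a single probe. Herpud1, of the degradation machinery, measured 7.84 and 8.53 against 7.21 and 6.83, Sdf2l1, a co-chaperone, 10.19 and 9.92 against 8.94 and 8.78, and Pdia4, another isomerase, 8.45 and 8.61 against 7.89 and 7.63. Tmed2, a cargo receptor of early transport vesicles, was the agreeing target, with log2 differences of 1.33 ± 0.42 and 1.65 ± 0.28. It measured 9.62 and 10.49 in ATF6aKO, 9.35 and 8.10 in WT and 8.59 and 8.46 in the ATF6bKO arrays. In each target that rose, apart from Sdf2l1, the ATF6aKO arrays lay above both WT and ATF6bKO arrays.

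The targets that fell were Ddit3, Hyou1, Edem1 and Derl1. Ddit3, the stress factor CHOP, measured 7.17 and 7.22 in ATF6aKO, 8.62 and 8.54 in WT and 7.23 and 7.11 in ATF6bKO (log2 difference -1.38 ± 0.15; adjusted p = 0.000923). Hyou1, a large ER chaperone, measured 7.37 and 7.56 against 8.44 and 8.17, and Edem1, which marks misfolded glycoproteins, 7.0 and 7.49 against 7.91 and 8.06. Derl1, a channel component of ER-associated degradation, was called lower on its brightest probe (log2 difference -0.59) and higher on the other (0.80), so its direction is not settled.

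Other targets did not pass. Hsp90b1, the ER chaperone GRP94, overlapped, at 9.24 and 10.45 in ATF6aKO and 9.71 and 8.31 in WT, and Calr, calreticulin, at 8.96 and 8.58 against 8.79 and 8.22. Pdia6 had a log2 difference of 1.32 ± 0.46 (adjusted p = 0.0525), Syvn1 of 0.47 (adjusted p = 0.0718), Creld2 of 0.36, Dnajc3 of -0.07, Sel1l of -0.10 and Derl3 of -0.39. The brightest probes of the remaining 7 targets, Dnajb11, Dnajb9, Hsp90ab1, Hspa13, Manf, P4hb and Selenos, had log2 differences from -0.48 to 0.72 and none passed, though the dimmer probe of Dnajb11 was called lower (-1.73). Of the 9 targets with an ER stress element only Hspa5 and Canx were called, both higher; the element says nothing here of what binds it. A second form, ATTGG and CCACG separated by 1 base, shares the CCACG part and was found in 12 promoters (0.0365%), those of Herpud1 and Dnajb11 among them, and the sequence TGACGTGG in 222 (0.676%), none of a target.

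**Figure D3:**
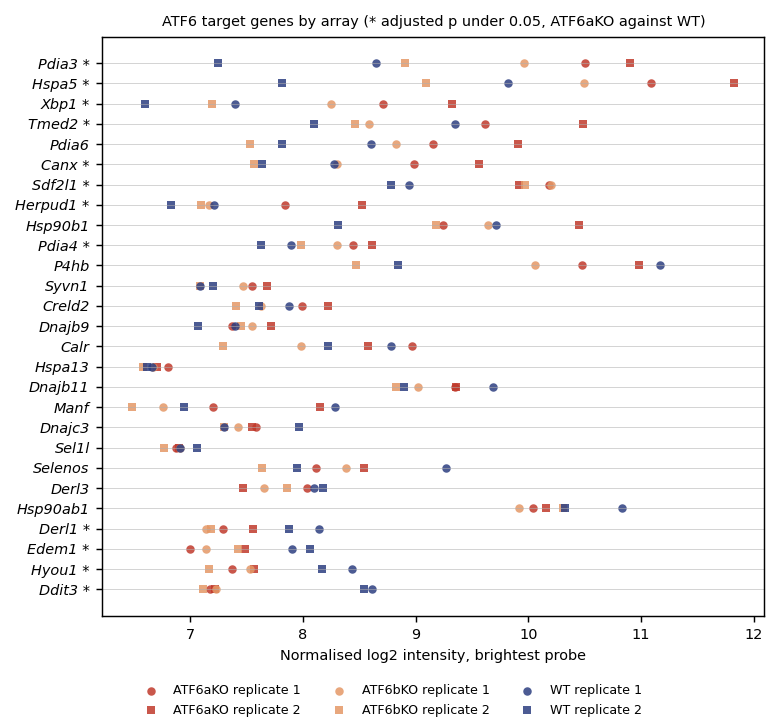
Normalised log2 intensity of the brightest probe of 27 ATF6 targets on each of the 6 arrays, ordered by the log2 difference between ATF6aKO and WT; circles are replicate 1, squares replicate 2, and an asterisk marks an adjusted p under 0.05. Pdia3 and Hspa5 are at the top with log2 differences of 2.76 and 2.64, and Ddit3 is at the bottom with -1.38.

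Sensors and relatives of ATF6 gave 2 higher and 1 lower of 16 tested. Creb3l1, also called OASIS, an ER membrane transcription factor of secretory bone cells, fell from 11.60 and 11.66 in WT to 10.26 and 9.81. Eif2ak3, the ER kinase PERK, was not well above background on either WT array and was at least 1.94-fold higher in ATF6aKO, at 6.99 and 7.05. Such a bound sets the mean of the brighter group against a floor for the dim group, and it does not cover array-to-array spread. The floor is taken per array as the dimmest signal that passed as well above background, or the probe's own signal if that is higher. Of 36 stress genes of PERK and ATF4, 4 rose and 10 fell, and under 75th percentile scaling the counts were 6 and 7. Slc7a5, an amino acid transporter, fell on each of 2 probes (log2 differences -1.27 and -1.36), from 8.83 and 8.46 to 7.47 and 7.28.

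ER-associated degradation had 3 higher and 6 lower of 23. Rnf5, a ubiquitin ligase, fell from 10.76 and 10.57 in WT to 9.55 and 9.28, and Ube2j1, a conjugating enzyme, rose on 1 of 3 probes (log2 difference 1.07). Under 75th percentile scaling the counts of this list were 7 higher and 5 lower, so its balance depends on the scaling.

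Genes by which proteins enter the ER and receive sugars were more often higher. Of 41 tested 20 rose and 4 fell (median 0.80), and without WT replicate 1 the counts were 24 and 3. The count fell to 8 higher and 1 lower without ATF6aKO replicate 2. Of 18 with several probes 3 agreed, all higher, and 2 had opposed probes. Magt1, an oligosaccharyltransferase subunit, measured 9.06 and 8.90 against 7.74 and 7.23 in WT (log2 differences 1.5 and 1.12). Sec62 and Sec63, helpers of the translocon, rose on both of their probes, by 1.58 and 0.60 for Sec62 and by 0.60 and 1.18 for Sec63 on the log2 scale. The call of Sec63 was lost without ATF6aKO replicate 2 and without either WT array.

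Larger differences in this list rested on 1 probe. Sec61a1, the channel of the translocon, measured 11.30 and 11.65 in ATF6aKO, 8.83 and 7.74 in WT and 10.83 and 9.04 in the ATF6bKO arrays, 9.12-fold above WT. Rpn2, an oligosaccharyltransferase subunit, measured 10.13 and 10.42 against 8.26 and 6.04, with 1 WT array not well above background. Ganab, the glucosidase of the folding cycle, was 10.1-fold higher on its brightest probe while its other probe did not pass. Of 44 genes of COPII and COPI vesicles, which carry cargo between ER and Golgi, 13 rose and 4 fell; without WT replicate 1 there were 22 higher and 3 lower, and without ATF6aKO replicate 2 there were 6 and 2.

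Ribosomal and mitochondrial genes were also more often higher. Of 46 cytosolic ribosomal proteins 25 rose and 4 fell (median 0.98), and of 27 with several probes 6 rose in all, 1 fell in all and 2 were opposed. Rps13 rose on both probes (log2 differences 1.42 and 1.71), with 11.09 and 11.36 in ATF6aKO against 10.63 and 8.98 in WT. Its call was lost without WT replicate 2 and without either ATF6aKO array. Rps2 fell on both probes (-1.73 and -1.08), from 13.27 and 12.53 to 11.27 and 11.05. Ribosomal protein genes have many near-identical pseudogenes, so their probes may share signal. The counts were 33 higher and 4 lower without WT replicate 1 and 18 and 7 without WT replicate 2.

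Of 52 genes of oxidative phosphorylation 22 rose and 5 fell, and without ATF6aKO replicate 2 the counts were 13 and 4. Without WT replicate 2 there were 19 higher and 10 lower, and without WT replicate 1 there were 27 and 4. Atp5l, a subunit of the ATP synthase, had the most probes of any agreeing gene named here, and all 5 rose. Its brightest probe measured 12.57 and 12.73 in ATF6aKO, 10.47 and 10.32 in WT and 12.48 and 12.44 in the ATF6bKO arrays. The log2 differences of the 5 probes were 2.25, 2.14, 2.55, 1.62 and 2.52, with adjusted p between 0.000455 and 0.00082. The spread between its probes was small beside the difference from WT, and the ATF6bKO arrays lay with ATF6aKO. Atp5k, of the same complex, rose on both probes (1.45 and 0.97).

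Cholesterol synthesis had 14 higher and 5 lower of 26 (median 0.80), and 9 and 4 without ATF6aKO replicate 2. Insig2, which holds back the SREBP activator, was its agreeing member, with 7.89 and 8.30 in ATF6aKO against 7.58 and 6.89 in WT (log2 differences of 0.86 and 1.25). Leaving out WT replicate 2 or either ATF6aKO array removed the call of Insig2. Ebp, a sterol isomerase, measured 9.83 and 9.48 against 7.11 and 7.19, and Msmo1, a sterol oxidase, 9.73 and 10.92 against 7.45 and 7.41, each on a single probe.

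Genes of DNA replication and mitosis had 16 higher and 2 lower of 34 (median 0.40). Birc5, survivin, measured 10.09 and 10.01 against 8.03 and 7.99 on its brightest probe, but 1 of its 3 probes had a log2 difference of -0.39 that did not pass. Cdkn1c, the inhibitor that halts proliferating chondrocytes, is in this list although it restrains division. It measured 11.40 and 12.61 in ATF6aKO, 7.96 and 8.35 in WT and 10.67 and 9.25 in the ATF6bKO arrays, 14.4-fold above WT on its only probe.

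Of 38 proteasome genes 12 rose and 6 fell, and of 36 translation factors 8 rose and 4 fell; without WT replicate 1 the translation factors had 15 higher and 3 lower. Psmc2, an ATPase of the proteasome cap, rose on both probes (log2 differences 1.17 and 1.0), with 8.48 and 9.08 in ATF6aKO, 7.64 and 7.59 in WT and 7.84 and 7.62 in the ATF6bKO arrays. Eif2s1, the initiation factor subunit that PERK phosphorylates, rose on both probes (1.60 and 1.05), from 7.88 and 7.93 to 9.34 and 9.67. Heat shock and immediate early genes had 8 of 29 in each direction, but 10 higher and 4 lower under 75th percentile scaling. Hspe1, the mitochondrial co-chaperonin, rose on each of 3 probes (1.65, 1.60 and 1.08).

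Growth plate signalling had 10 higher and 6 lower of 34 and no agreeing member. Igf1, the growth factor that drives bone lengthening, fell on its brightest probe from 10.18 and 10.44 to 8.20 and 8.36, but its other 2 probes had log2 differences of -0.19 and 0.13 that did not pass. Tgfb2, which restrains hypertrophy, rose on its brightest probe from 6.76 and 6.92 to 9.14 and 9.33, and its other probe had a log2 difference of 0.08. The calls of both genes rest on 1 of their probes.

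Resting zone genes had 3 higher and 6 lower of 14, with Apoe, apolipoprotein E, at 9.05 and 8.90 in ATF6aKO against 10.55 and 10.37 in WT, and Axin2, a target of Wnt signals, at 6.65 and 6.40 against 7.90 and 8.14. Matrix proteases and inhibitors had 5 higher and 2 lower of 29. Mmp8, a collagenase, rose from 7.57 and 7.52 to 9.06 and 9.59, and Timp4, an inhibitor, fell from 10.85 and 11.17 to 10.05 and 9.75. Hypoxia and glycolysis had 9 higher and 7 lower of 30 and 5 members with opposed probes among 12 with several.

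The remaining processes were mixed. Lysosome and autophagy had 5 higher and 6 lower of 38, with 4 and 14 without WT replicate 2 but 12 and 6 without WT replicate 1; Map1lc3a, of autophagosome membranes, fell from 9.12 and 9.29 to 7.17 and 7.41. Imprinted growth genes had 6 in each direction of 21, with 4 opposed, and Nnat, neuronatin, fell on both probes (log2 differences -0.95 and -1.09). Hox genes had 4 higher and 5 lower of 32: Hoxd9 rose from 8.54 and 8.61 to 10.50 and 10.23, and Hoxa4, not well above background in ATF6aKO, was at least 2.32-fold higher in WT. Interferon response genes had 5 higher and 3 lower of 21, with Ifit3 rising from 8.63 and 8.87 to 9.84 and 10.20 while the 2 probes of Isg15 opposed each other (1.57 and -0.76). Class I histocompatibility genes had 1 higher and 5 lower of 16.

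ATF6aKO replicate 2 moved many of these counts, as it did the count over all genes, which was 4682 without it. Without this array PERK and ATF4 genes had 2 higher and 2 lower, genes of sugar chain synthesis 4 and 2, collagen modification 4 and 3, ER-associated degradation 2 and 3, and growth plate signalling 8 and 1. Hypertrophic chondrocyte genes had 3 and 3, hypoxia and glycolysis 4 and 4, translation factors 4 and 3, and cytosolic ribosomal proteins 17 and 2. Cartilage matrix genes had 14 and 1 and chondrocyte markers 11 and 0. Without WT replicate 2, matrix proteases and inhibitors had 4 higher and 9 lower, hypertrophic chondrocyte genes 5 and 8, and class I histocompatibility genes 1 and 8. Without WT replicate 1, imprinted growth genes had 9 higher and 6 lower and ER-associated degradation 3 and 3.

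**Figure D4:**
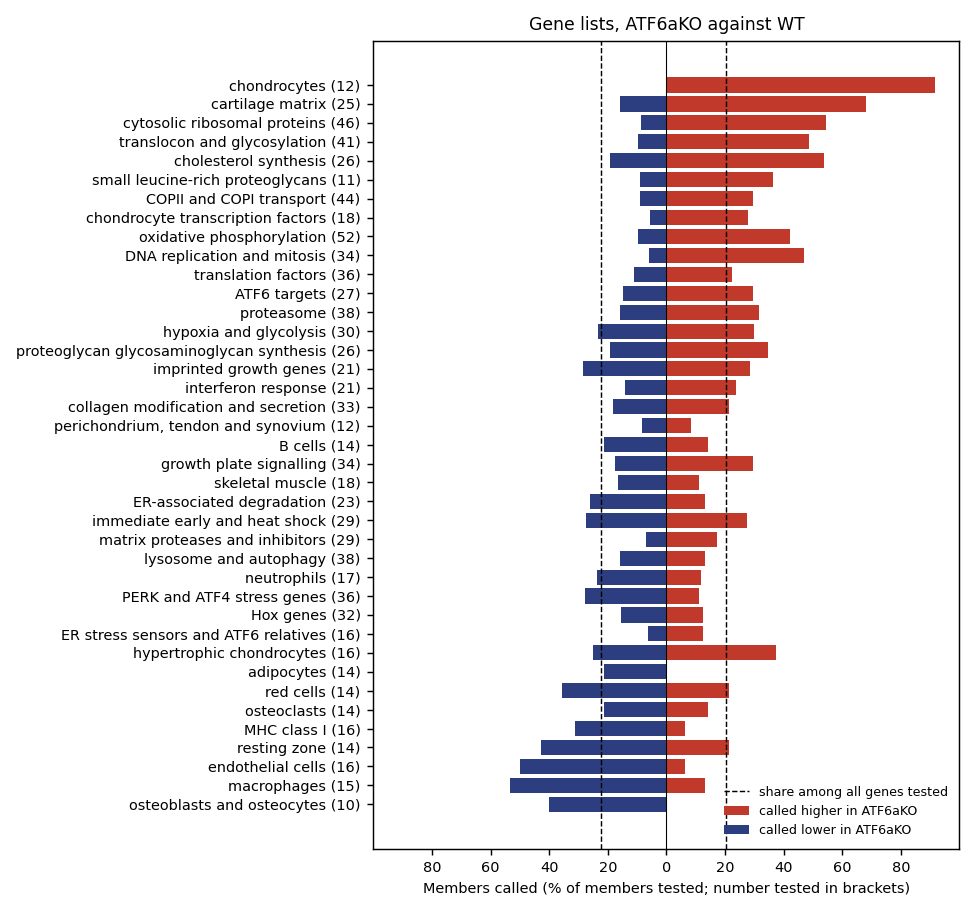
Share of the tested members of each gene list called higher (red, to the right) or lower (blue, to the left) in ATF6aKO than WT, ordered by the median log2 difference; dashed lines mark the shares over all genes, 20.3% and 22.3%. Chondrocytes and cartilage matrix are at the top, and osteoblasts and osteocytes at the bottom. Under the authors' deposited table, which follows the green channel for the knockouts, the cartilage direction turned.

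Markers of other cell types were mostly lower or mixed in ATF6aKO. Of 16 endothelial markers 1 rose and 8 fell, and 1 and 7 without WT replicate 1 and 0 and 5 without ATF6aKO replicate 2. Plvap, of vessel walls, fell on both probes (log2 differences -1.76 and -1.0), from 9.69 and 9.73 to 7.92 and 7.98. The summed endothelial intensity, in units of 1000, was 3.65 and 3.22 in ATF6aKO and 6.66 and 6.07 in WT, so both WT arrays were higher. In bulk tissue fewer cells of a type and less RNA per cell cannot be told apart.

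Of 15 macrophage markers 2 rose and 8 fell (median log2 difference -0.66). Their summed intensity, in which the brightest markers weigh most, was 147 and 139 against 146 and 134 in WT, in units of 1000. The median deviation of the markers from their mean over the 6 arrays was -0.08 and -0.16 log2 in ATF6aKO. On the WT arrays it was 0.29 and 0.23. Siglec1 fell on both probes (log2 differences -0.69 and -1.66), whereas Lyz2, lysozyme, rose from 7.90 and 8.89 to 10.74 and 10.77. Siglec1 lost its call without WT replicate 2 and without either ATF6aKO array. Of 10 osteoblast and osteocyte markers none rose and 4 fell, and 1 rose and 2 fell without WT replicate 1; 7 fell without WT replicate 2. Fam20c, a kinase of matrix proteins, fell on both probes (-0.60 and -1.18). It lost its call without WT replicate 1 and without either ATF6aKO array. Col1a1 and Col1a2 did not pass, and both were highest on WT replicate 1.

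Of 14 osteoclast markers 2 rose and 3 fell, with Tcirg1, a proton pump subunit, at 7.30 and 6.98 in ATF6aKO against 10.62 and 8.75 in WT, 3.06-fold higher in WT without WT replicate 1, and Tnfrsf11a, the receptor RANK, rising from 9.0 and 9.26 to 9.80 and 10.05. The summed intensity of osteoclast markers, in units of 1000, was 24.8 and 8.89 in WT and 9.11 and 8.34 in ATF6aKO. Of 14 red cell markers 3 rose and 5 fell. Hba-a1, alpha globin, whose copies are near-identical, measured 7.75 and 7.40 against 14.81 and 11.76, 52.3-fold higher in WT but 18.2-fold without WT replicate 1, and Slc4a1, the red cell anion exchanger, 8.13 and 8.09 against 10.43 and 10.44. In both genes each WT array lay above each ATF6aKO array.

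Neutrophil markers had 2 higher and 4 lower of 17, B cell markers 2 and 3 of 14, skeletal muscle 2 and 3 of 18, adipocytes 0 and 3 of 14, and perichondrium, tendon and synovium 1 and 1 of 12. Ctsg, of neutrophil granules, fell from 8.28 and 8.47 to 7.09 and 7.07. Mmp8, given above as a collagenase and also in the neutrophil list, rose from 7.57 and 7.52 to 9.06 and 9.59. Pax5, which defines B cells, fell on both probes (log2 differences -1.30 and -0.88). In muscle Atp2a1 fell from 9.72 and 10.07 to 8.74 and 8.52 and Ckm from 8.10 and 8.26 to 7.26 and 7.11. Cidec, of fat droplets, fell from 8.50 and 8.53 to 7.29 and 6.87 on 1 of 2 probes. Adrb3, the adrenergic receptor of fat cells, had probes with log2 differences of -0.90, called, and 0.18, not called. In perichondrium Fibin rose by 0.83 and Pi16 fell by 0.66 on the log2 scale. Chondrocyte markers summed to 97.5 and 109 in ATF6aKO, 15.9 and 20.8 in WT, and 59.2 and 28.5 in the ATF6bKO arrays, in units of 1000. The part of tissue makeup in the cartilage result was not tested.

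**Figure D5:**
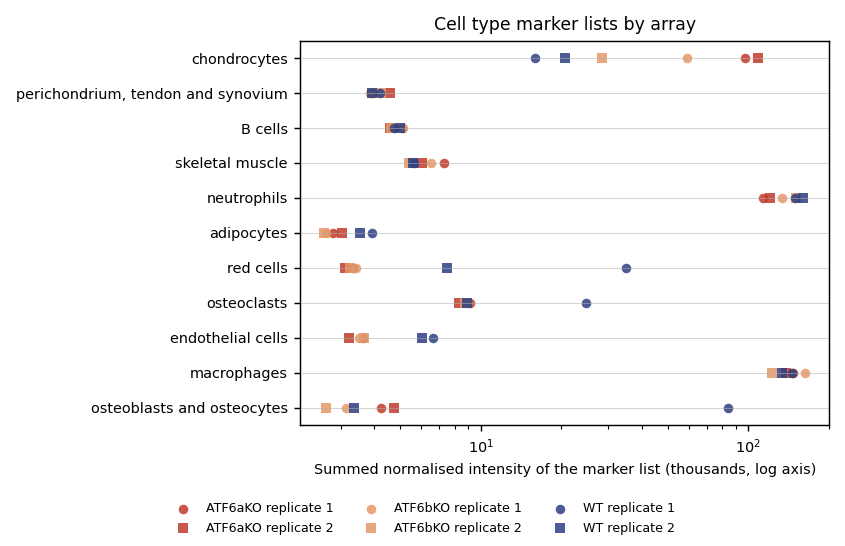
Summed normalised intensity of each cell type's tested markers on each array (in units of 1000, log axis); circles are replicate 1 and squares replicate 2. Chondrocyte markers lie between 97.5 and 109 on the ATF6aKO arrays and at 15.9 and 20.8 on the WT arrays, and osteoblast markers are high on WT replicate 1 alone, at 84.0.

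In 5 genes chosen for the strongest opposed probes, the direction depended on the probe. Polr2l, a subunit shared by RNA polymerases, had log2 differences of -1.90 ± 0.17 and 2.38 ± 0.23, each called. Sec61b, a translocon subunit, had 3.38 ± 0.77 and -1.78 ± 0.19. Nutf2, a carrier of nuclear import, was called higher on 2 probes (1.90 and 0.93) and lower on 1 (-2.14). Actg1, a cytoskeletal actin with many near-identical copies, was called lower on 3 probes (-1.36, -1.62 and -1.91) and higher on 1 (1.73), and Ppp1r2 lower on 1 (-1.97) and higher on 1 (1.78). No direction is given for these genes.

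Genes with several probes that were not well above background in 1 genotype have only a bound there. These bounds rest on means, so leaving out an array can lower them. Cox17, a copper chaperone of cytochrome oxidase, was not well above background on either WT array and was at least 1.81-fold and 1.60-fold higher in ATF6aKO by its 2 probes, of which 1 passed. Dscaml1, a neuronal adhesion protein, was not well above background in ATF6aKO and was at least 1.83-fold and 1.36-fold higher in WT, with both probes called. For Zcchc24 the bounds were 1.72-fold and 1.49-fold higher in WT with 1 probe called, and for Six2 1.49-fold and 1.26-fold with neither called. On its brightest probe Cox17 had a log2 difference of 0.86, and of 0.46 without ATF6aKO replicate 2. Dscaml1 had -0.87, and -0.55 without WT replicate 2.

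ATF6aKO and ATF6bKO were measured on the same slide, so this comparison does not carry the difference of slide and channel. No gene was called in limma (0 of 19122, 0%). An unadjusted p under 0.05 was reached by 1169 of the 19122, of which 974 were higher in ATF6aKO. If no gene differed, a share of about 0.05 would pass that threshold, so the 1169 are not read as differences. The log2 difference was 1.67 for Hspa5, 1.34 for Canx, 1.53 for Tmed2, 1.43 for Niban2 and 1.05 for Psmc2, and none of these passed. It was 0.19 for Atp5l, -0.09 for Stxbp2 and -0.21 for Cmtm7, and none of these passed either. All these genes are examples picked from those named above, so the spread of their values follows from the choice. Against WT, 7190 genes were called for ATF6bKO, in a comparison that shares the WT arrays with the one above.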

How the data were processed

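RNA from microdissected growth plates was amplified and hybridised to Agilent mouse arrays, per the labels' protocols. The deposited scanner files hold spot intensity; per the submitters' processing notes the software was Feature Extraction, version 10.7.1.1. The red channel was used for the knockouts and the only channel for WT. The authors' table of log2 values, used as an alternative, follows the green channel of the knockout arrays (r = 0.999 for differences between arrays); what its scale is relative to stays unknown. Column medians were 0.2 and 0.1 for ATF6aKO and -0.5 and -0.5 for WT.

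Median spot and background intensities were corrected with normexp (offset 50; limma 3.58.1, R 4.3.3), and taken to log2. Control spots and spots marked as outliers were dropped, which removed 288 probes, the rest were averaged per probe, and arrays quantile normalised. Of 55681 probes 26582 matched 20145 symbols by RefSeq accession (GRCm38.p6). A probe was kept if any genotype had both of its arrays well above background, 24907 in all. The brightest stood for its gene. All 6 arrays were fitted with lmFit and eBayes; adjusted p-values are Benjamini-Hochberg over all genes, or over all probes where several probes are given. The procedure was tested on simulated data.

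The comparison, the 39 gene lists (28 processes, 11 cell types) and the rule for naming genes were chosen with earlier results of these data known. The rule took Atf6 and Atf6b; the 15 genes each way whose probes all agreed without overlap of ATF6aKO and WT arrays and whose smallest probe difference was largest; up to 3 agreeing members each way per list, or else the 2 of smallest p; ATF6 targets; 5 genes with opposed probes; and bounds, passing over clone-like symbols. Of the genes so chosen, 2 are not reported here. Acan, Col1a1, Col1a2, Col2a1, Col9a2, Comp, Ebp, Ganab, Lyz2, Msmo1, Papss2, Rpn2, Sec61a1, Serpinh1 and Slc35d1 lie outside it and were named after their values were seen. All of these but Col1a1, Col1a2 and Comp were called, each as a rise, so no called fall was named in this way.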

Additional observations from a re-analysis of the deposited data

Results flagged for a closer look

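The green channel of the ATF6aKO arrays, which the comparison does not use and which the labels' dye does not name, held signal: 11.4% of spots on replicate 1 and 9.59% on replicate 2 were well above background there. No control gives the level to be had without label in that channel.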

How the results depend on the processing

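The count of genes called was between 4682 and 8061 when any 1 array was left out, and that of agreeing genes between 252 and 622. The lowest counts were those without ATF6aKO replicate 2. Asking for over 2-fold as well left 3593 and 179. The authors' deposited table gave 1016 agreeing genes, of which 128 were among the 628 in the same direction and 20 in the opposite one, and 71.8% of its 9535 called genes were higher; the cause was not tested. Apart from these, the total counts in the settings run were within 1.5 times those reported. Totals were 8745 and 740 with 75th percentile scaling, but its agreeing genes split into 491 higher and 249 lower, against 296 and 332. Of 114 called genes refitted by name, 28 lost their call without ATF6aKO replicate 2, 15 without ATF6aKO replicate 1, 13 without WT replicate 2, 6 without WT replicate 1 and 4 with 75th percentile scaling. With the replicate number as a block there were 7594 genes called and 560 agreeing, 541 of them among the 628; the numbers do not pair the arrays (r = -0.146 to 0.199 between genotypes).

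The log2 difference of Atf6 lay between -0.26 and -0.028 with any 1 array left out. Log2 differences that changed sign are given next; the cause was not tested. With 75th percentile scaling they were Atf6 0.075, Dnajc3 0.071 and Sel1l 0.15. With the scanner's processed signal they were Dnajb11 -0.067, Dnajc3 0.070, Hspa13 -0.033 and Manf -0.044. With a fit of the 4 arrays alone the only one was Sec61b, at -1.81. With the mean over probes they were Derl1 0.11, Dnajb11 -0.83, Hspa13 -0.046, Polr2l 0.24 and Ppp1r2 0.031. In the authors' deposited table they were Atf6 0.95, Acan -0.65, Actg1 1.40, Adrb3 1.45, Amy2a5 -0.0072, Ano10 0.65, Cdkn1c -0.80, Col1a1 5.0, Col1a2 3.0, Col2a1 -0.45, Col9a1 -1.85, Col9a2 -0.20 and Comp -4.45. Also in that table were Ddit3 3.25, Derl1 3.10, Dnajb11 -0.94, Dnajc3 4.2, Dscaml1 1.15, Edem1 2.30, Eif2s1 -0.19, Fam20c 0.48, Foxl2 0.35, Gosr2 -0.25, Hoxa4 1.21, Hoxd9 -1.25 and Hsp90ab1 5.45. That table further gave Ifit3 -1.15, Loxl1 0.42, Lyz2 -0.45, Rps2 3.60, Sel1l 3.0, Selenos 4.55, Six2 2.25, Slc16a3 -0.55, Tnfrsf11a -1.05 and Zcchc24 4.35. With any 1 array left out, the lowest and highest values were -0.013 and 0.55 for Calr, -6.65 and 0.26 for Col1a1, -4.75 and 2.65 for Col1a2, -0.33 and 0.46 for Dnajb11, -0.40 and 0.27 for Dnajc3, -0.61 and 0.73 for Manf, -0.44 and 1.88 for P4hb; and -0.94 and 0.38 for Selenos, with WT replicate 1 or 2 or ATF6aKO replicate 2 the array that turned the sign. Bright and dim probes alike were limited by the 2 arrays of each genotype, and probes not well above background in a genotype gave bounds only.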
